A study of Rattus norvegicus with 12 samples.

Results

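The genes described here are the cytosolic ribosomal protein genes of the rat lung. They were chosen by name: a gene belonged if its symbol was Rpl or Rps followed by a digit, or Rplp0, Rplp1, Rplp2 or Rpsa, with the Rps6k kinases and pseudogenes left out. Only probe sets annotated to 1 gene were used, and a gene with several was represented by its brightest. This gave 48 genes out of 14217 with a single-gene probe set, 33 of the large (60S) subunit and 15 of the small (40S) subunit or named after such a protein. Rplp1, Rplp2, Rpl10, Rpl38, Rps14, Rps19 and Rps27a had no probe set of their own here and were not analysed. The right lungs of 12 rats were measured on 1 Affymetrix array each, 3 arrays in each of 4 groups. The groups were Dahl salt-sensitive (SS) rats with the ventilation that the labels call HTV and do not spell out, SS control rats, Brown Norway (BN) rats with HTV ventilation, and BN control rats. SS is an inbred rat strain used as a model of salt-induced hypertension, and BN is an inbred strain commonly set against it. Rats of all 4 groups weighed 250 to 350 g, were bled under anaesthesia and had the lung vessels flushed with buffered saline. The description line of all 4 groups mentions room air and ventilation, so how the control animals breathed is not settled by the labels, and age and sex are not given there.

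A ribosome reads messenger RNA on its small subunit and joins amino acids on its large subunit, and each subunit is a core of ribosomal RNA coated with proteins. The genes of these proteins are among the most strongly transcribed in any cell, and their messages in mammals begin with a cytosine and a run of pyrimidines, the 5′ terminal oligopyrimidine (TOP) tract. The kinase mTOR controls the translation of TOP messages through the binding protein Larp1, and the transcription factor Myc raises the output of genes for ribosome assembly. In lung, as in other tissues, the messenger level of these genes says how much template is present and nothing on how often it is translated.

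Pyrimidine runs were more frequent near the annotated transcription starts of these genes than in all start sequences. A RefSeq sequence of the start region (rat assembly GRCr8) was matched for 43 of the 48 genes, and Rpl7, Rpl23a, Rpl27, Rpl30 and Rps29 had none. Within a window of 50 bases, 30 before and 20 after the annotated start, a pyrimidine run of 8 or more bases was present in 29 of the 43, or 67.4%, against 19.9% of all 33469 start sequences. The median longest run was 10 bases in the ribosomal protein genes and 5 in all sequences. A run was counted anywhere in the window, so it need not be a TOP tract, which begins with the message. The windows below are shown for 3 core proteins with a run across the annotated start (Rplp0, Rps23 and Rpl19). The other 5 are the genes that passed the test between the strains in control lungs, with limits given further below. The windows are written 5′ to 3′ on the strand of the gene, with the longest pyrimidine run in capitals. They lie at chr12:46718371-46718420 (minus strand) for Rplp0, chr2:23814487-23814536 (plus) for Rps23, chr10:83519034-83519083 (plus) for Rpl19, chr8:129163590-129163639 (plus) for Rpl14, chrX:121195877-121195926 (minus) for Rpl39, chr9:21695688-21695737 (plus) for Rpl7l1, chr10:17029009-17029058 (minus) for Rpl26l1 and chr4:183000883-183000932 (plus) for Rps4y2.
Rplp0: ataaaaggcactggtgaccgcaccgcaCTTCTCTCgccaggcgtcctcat
Rps23: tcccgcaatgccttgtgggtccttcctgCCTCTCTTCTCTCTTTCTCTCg
Rpl19: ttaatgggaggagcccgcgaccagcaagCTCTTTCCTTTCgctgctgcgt
Rpl14: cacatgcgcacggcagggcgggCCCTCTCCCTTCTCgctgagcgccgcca
Rpl39: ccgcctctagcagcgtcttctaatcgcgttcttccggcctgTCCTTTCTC
Rpl7l1: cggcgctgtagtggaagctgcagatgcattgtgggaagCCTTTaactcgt
Rpl26l1: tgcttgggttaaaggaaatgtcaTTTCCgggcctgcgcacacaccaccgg
Rps4y2: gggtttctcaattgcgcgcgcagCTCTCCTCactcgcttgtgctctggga

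The run was 21 bases long in Rps23, 14 in Rpl14, 12 in Rpl19 and 8 in Rplp0, and it lay across or next to the annotated start in all 4. Rps4y2 held a run of 8 bases and Rpl39 a run of 9 that began at base 12 of the annotated transcript and reached the end of the window. The paralogs Rpl26l1 and Rpl7l1 had no run longer than 5 bases in this window. In the 300 bases from 250 before to 50 after the start, read on both strands, GGGCGG (the GC box) was found in 26 of 43 genes (60.5%, against 33.1% of all sequences), CCGGAAG (an ETS factor core) in 10 (23.3% against 8.75%), AAGATGGC (the YY1 motif) in 4 (9.30% against 3.17%) and TATAAA in 6 (14.0% against 14.2%). These matches are letters in a window and no evidence of binding.

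The arrays were scaled by the depositors to a common mean, and 1 array stands apart in ways that touch several results below. The beta-actin 5′ to 3′ signal ratio, a measure of RNA integrity on a log2 scale, was lowest among SS arrays in SS control 3, at -1.41, and the other SS arrays ranged from -1.02 to -0.23, while BN arrays ranged from -1.47 to -0.88. SS control 3 also went against its strain label at RT1-CE5 and Aox1, but not at every gene that separates the strains. A probe set of the histocompatibility gene RT1-CE5 read 498.4 there, against 0.7 to 2.2 in the other SS arrays and 714.1 to 1053 in BN arrays. Aox1 read 38.1, against 238.0 to 274.9 in the other SS arrays and 38.0 to 64.1 in BN arrays. Pecam1 stayed with SS, at 522.6, against 432.0 to 532.4 in the other SS arrays and 675.5 to 816.8 in BN arrays. Results that rest on SS control 3 are therefore given with and without it. All 10 measured lung markers, surfactant and endothelial genes among them, were bright enough to be tested, with a summed intensity of 21690 to 30180 per array. Summed neutrophil markers (10 measured, Camp below the brightness limit) read 6266 to 9662 in SS HTV, 2734 to 2922 in SS control, 3440 to 12420 in BN HTV and 1533 to 2894 in BN control arrays. Summed T and NK cell markers (19 measured, Cd2 and Cd8b below the limit) read 2733 to 2917 in SS HTV, 2931 to 5070 in SS control, 1602 to 2292 in BN HTV and 2698 to 2795 in BN control arrays. The value of 2931 was that of SS control 3, and the other SS control arrays read 4684 and 5070. In a bulk sample, fewer cells of a type and less RNA per cell cannot be told apart.

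Ribosomal protein messages gave some of the brightest signals on these arrays. Of the 48 genes, 43 passed the limit on brightness (the 40th percentile of mean log2 signal, which fell near an intensity of 42.2), 29 of the large and 14 of the small subunit. Of these, 38 had a mean intensity of 1000 or more, from 1603 for Rpl21 to 4129 for Rps23. A mean of 1000 or more was reached by 919 probe sets, or 2.96% of the array. Levels of different probe sets are not comparable with each other, since each depends on its probes. The other 5 that passed were Rpl39 (mean 270.8) and the paralogs Rpl7l1 (428.6), Rps27l (76.9), Rps4y2 (64.2) and Rpl26l1 (52.2). Rps4y2 passed only through its SS arrays, since its BN arrays lay below the limit, and the SS control arrays of Rpl26l1 lay below it too, so passing and differing are not independent for these paralogs. The 5 genes below the limit were Rps13 (mean 42.2), Rpl28 (32.0), Rpl30 (19.5), and the paralogs Rpl39l1 (4.21) and Rpl3l (3.74), the last of which is a muscle protein that replaces Rpl3. These 5 were not tested. After Rps23, the brightest were Rps29 (3781), Rpl26 (3439), Rps3a (3359) and Rpl37a (3246).

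Replicates differed by a median of 0.18 log2 units in these 43 genes (SD within groups, from 0.095 in Rpl23a to 0.25 in Rpl22, with Rps3 at 0.23 and Rps15 and Rps24 at 0.226 next), about as much as in all 18625 tested probe sets (0.18) and more than in all those with a mean of 1000 or more (0.15). The spread was shared: within an array, most ribosomal protein genes lay on the same side of their own mean. In SS control 3, 41 of the 43 were above their mean over the 12 arrays, by a median of 0.33, and 31 of them had their highest value of all arrays there. The same array's median deviation was 0.12 over all probe sets of such brightness and -0.027 over all tested probe sets. In SS HTV 3, 4 of the 43 were above their mean, the median deviation was -0.22, and 27 had their lowest value of all arrays there. Over all probe sets of such brightness the median deviation of SS HTV 3 was -0.12, and over all tested probe sets 0.001. The median deviation of the 43 in the other 10 arrays lay between -0.11 (SS control 2) and 0.11 (BN HTV 2). All probe sets of such brightness had -0.078 and 0.10 in these 2 arrays, so part of the shift was shared with them.

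**Figure D1:**
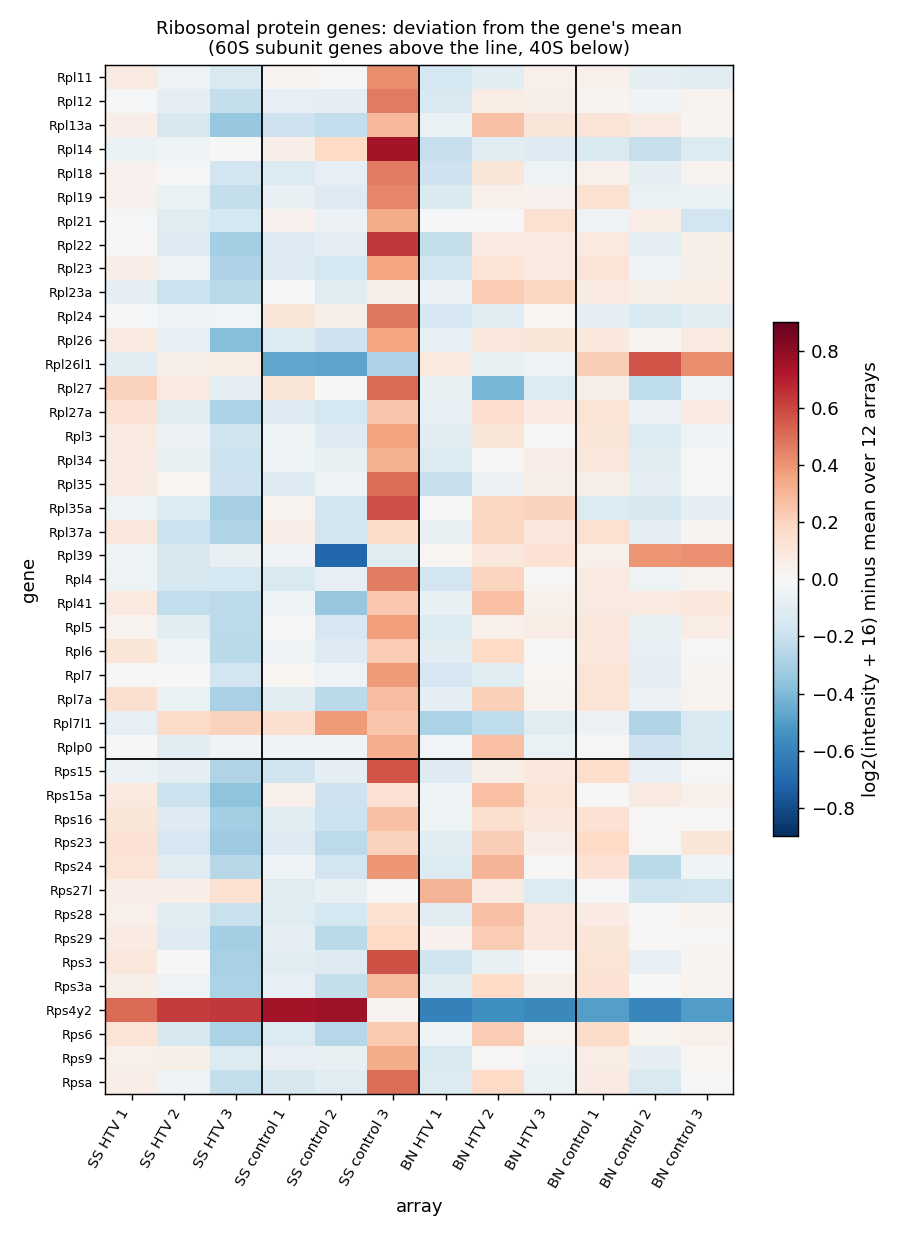
Each row is a ribosomal protein gene (29 large-subunit genes above the line, 14 small-subunit genes below) and each column an array, and colour gives log2(intensity + 16) minus the mean of the gene over the 12 arrays. The column of SS control 3 is red for 41 of 43 genes and that of SS HTV 3 mostly blue, while Rps4y2, Rpl26l1, Rpl39 and Rpl7l1 do not follow the columns.

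A further 36 probe sets match several genes, a ribosomal protein gene among them, and were not named; the 35 bright enough followed the same order, with median deviations of 0.37 in SS control 3 and -0.21 in SS HTV 3. Within the 6 SS arrays the median deviation of the 43 genes was 0.33, 0.057, -0.076, -0.071, -0.22 and -0.11 at beta-actin ratios of -1.41, -1.02, -0.68, -0.51, -0.40 and -0.23, for SS control 3, SS HTV 1, SS HTV 2, SS control 1, SS HTV 3 and SS control 2. The higher values thus lay with the lower ratios in SS arrays. In BN arrays, whose ratios were all at or below -0.88, the highest median (0.11, BN HTV 2) was at -1.26 and the lowest (-0.10, BN HTV 1) at -1.16. The part of RNA integrity in these array differences was not tested.

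**Figure D2:**
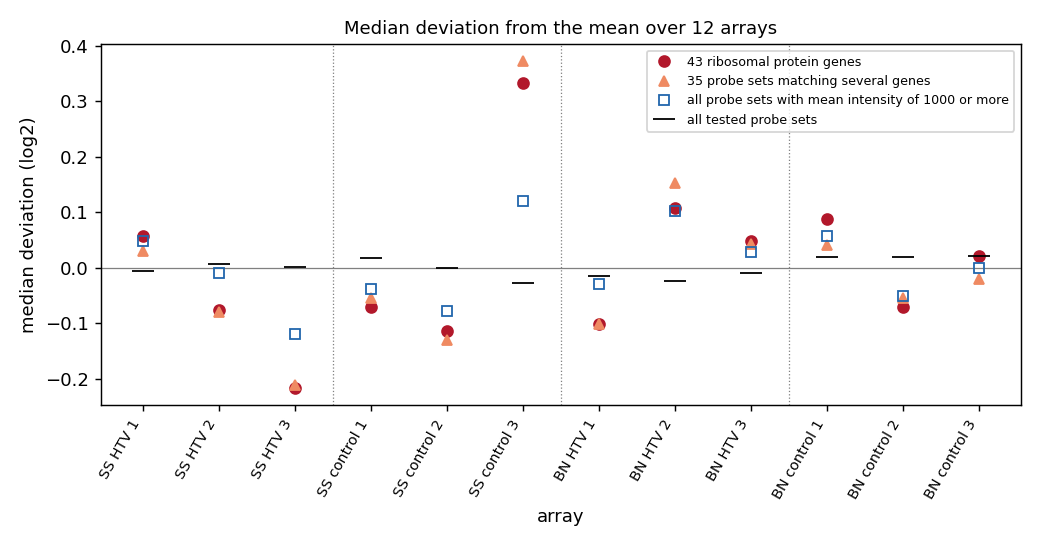
The median deviation from the mean over 12 arrays (log2) is shown for each array, for the 43 ribosomal protein genes, the 35 probe sets matching several genes, all 919 probe sets of mean intensity 1000 or more and all 18625 tested probe sets. SS control 3 is the highest, at 0.33 for the ribosomal protein genes, and SS HTV 3 the lowest, at -0.22.

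The first comparison asks what HTV ventilation changed in SS lungs. None of the 43 ribosomal protein genes passed the test there (limma, adjusted p below 0.05), in an experiment where 8.06% of all tested probe sets did (3.91% higher and 4.16% lower), and 3 of 43 had an unadjusted p below 0.05 against 25.3% of all. The genes leaned one way: 39 of 43 had lower means in SS HTV than in SS control lungs, with a median difference of -0.14 (log2) against -0.005 over all tested probe sets. The lean was -0.14 in large-subunit genes and -0.083 in small-subunit genes, and -0.16 in the probe sets matching several genes. It depended on SS control 3: without that array the median was 0.029, and 25 of 43 genes were higher and 18 lower in SS HTV lungs. For 35 of the 43 genes the 95% interval of the difference lay within 0.5 log2 units of 0.

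Rpl26l1, a paralog of the large-subunit gene Rpl26, came closest to a rise. It read 46.4, 53.0 and 53.9 in SS HTV arrays and 32.2, 32.1 and 39.0 in SS control arrays, with no overlap, and differed by 0.41 ± 0.13 (log2, SE, n = 3 each; adjusted p = 0.0755). Groups failed to overlap in this direction for 2 of the 43 genes and for 14% of all tested probe sets; the other was Rps27l, a paralog of Rps27 known in human cells as a target of p53. Rps27l read 80.3, 80.5 and 85.9 in SS HTV arrays and 69.7, 72.5 and 77.2 in SS control arrays (0.14 ± 0.13, adjusted p = 0.527). Rpl39, which lines the exit tunnel of the growing peptide, differed by 0.20 ± 0.16 (adjusted p = 0.458), with SS HTV arrays at 258.9, 239.5 and 253.1 and SS control arrays at 259.2, 156.9 and 245.4.

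On the lower side 2 of 43 genes, Rpl14 and Rpl24, had arrays that were separate between the groups, against 15.8% of all. Rpl14, a large-subunit protein, read 1744, 1775 and 1816 in SS HTV arrays and 1896, 2058 and 3064 in SS control arrays, the last being SS control 3. The difference was -0.36 ± 0.14 (adjusted p = 0.127), -0.15 ± 0.079 (adjusted p = 0.295) without SS control 3, and -0.50 ± 0.14 (adjusted p = 0.0493) without SS control 1. Rpl24, which reaches from the large to the small subunit, read 2023, 1974 and 1997 in SS HTV arrays and 2195, 2109 and 2829 in SS control arrays (-0.24 ± 0.11, adjusted p = 0.182, and -0.11 ± 0.078 without SS control 3, adjusted p = 0.467). Rpl35a, a gene affected in Diamond-Blackfan anaemia in humans, differed by -0.31 ± 0.15 (adjusted p = 0.230), and by -0.089 ± 0.10 without SS control 3.

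The second comparison asks the same of BN lungs. Again none of the 43 genes passed, where 5.82% of all tested probe sets did (2.96% higher and 2.86% lower), and 1 had an unadjusted p below 0.05 against 19.9% of all. Here the signs were mixed: 18 genes were higher and 25 lower in BN HTV than in BN control lungs, with a median of -0.011 against -0.035 over all tested probe sets. The median changed sign to 0.024 with each array centred on its median and to 0.059 without BN HTV 1. For 40 of 43 genes the 95% interval lay within 0.5 log2 units of 0.

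Rpl26l1 was again the nearest to a change, in the opposite direction. It read 54.9, 47.6 and 49.2 in BN HTV arrays and 61.7, 82.7 and 73.2 in BN control arrays, a difference of -0.41 ± 0.13 (adjusted p = 0.100), the one gene of 43 whose groups did not overlap downwards (15.7% of all did). Rpl35a was the one whose groups did not overlap upwards (10.9% of all), reading 2685, 3087 and 3145 with HTV and 2488, 2456 and 2570 in BN control arrays (0.24 ± 0.15, adjusted p = 0.417). For Rps27l the values were 98.1, 81.8 and 69.1 with HTV, against 75.5, 65.6 and 66.6 in BN control arrays (0.21 ± 0.13, adjusted p = 0.414). Rplp0, the protein at the base of the stalk that recruits translation factors, differed by 0.17 ± 0.12 (adjusted p = 0.481). On the lower side Rpl39 differed by -0.20 ± 0.16 (adjusted p = 0.541) and Rpl7 by -0.10 ± 0.12 (adjusted p = 0.686). A second, dimmer probe set of Rpl7 (mean 46.8) gave 0.44 ± 0.19 (adjusted p = 0.227).

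Neutrophil markers were called higher in both strains, 4 of 9 tested in SS and 5 of 9 in BN HTV lungs. Of all tested probe sets, 3.91% and 2.96% were called higher. No ribosomal protein gene was called beside these markers. More neutrophils and more RNA per cell cannot be told apart here. The part of these markers in the ribosomal protein values was not tested.

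**Figure D3:**
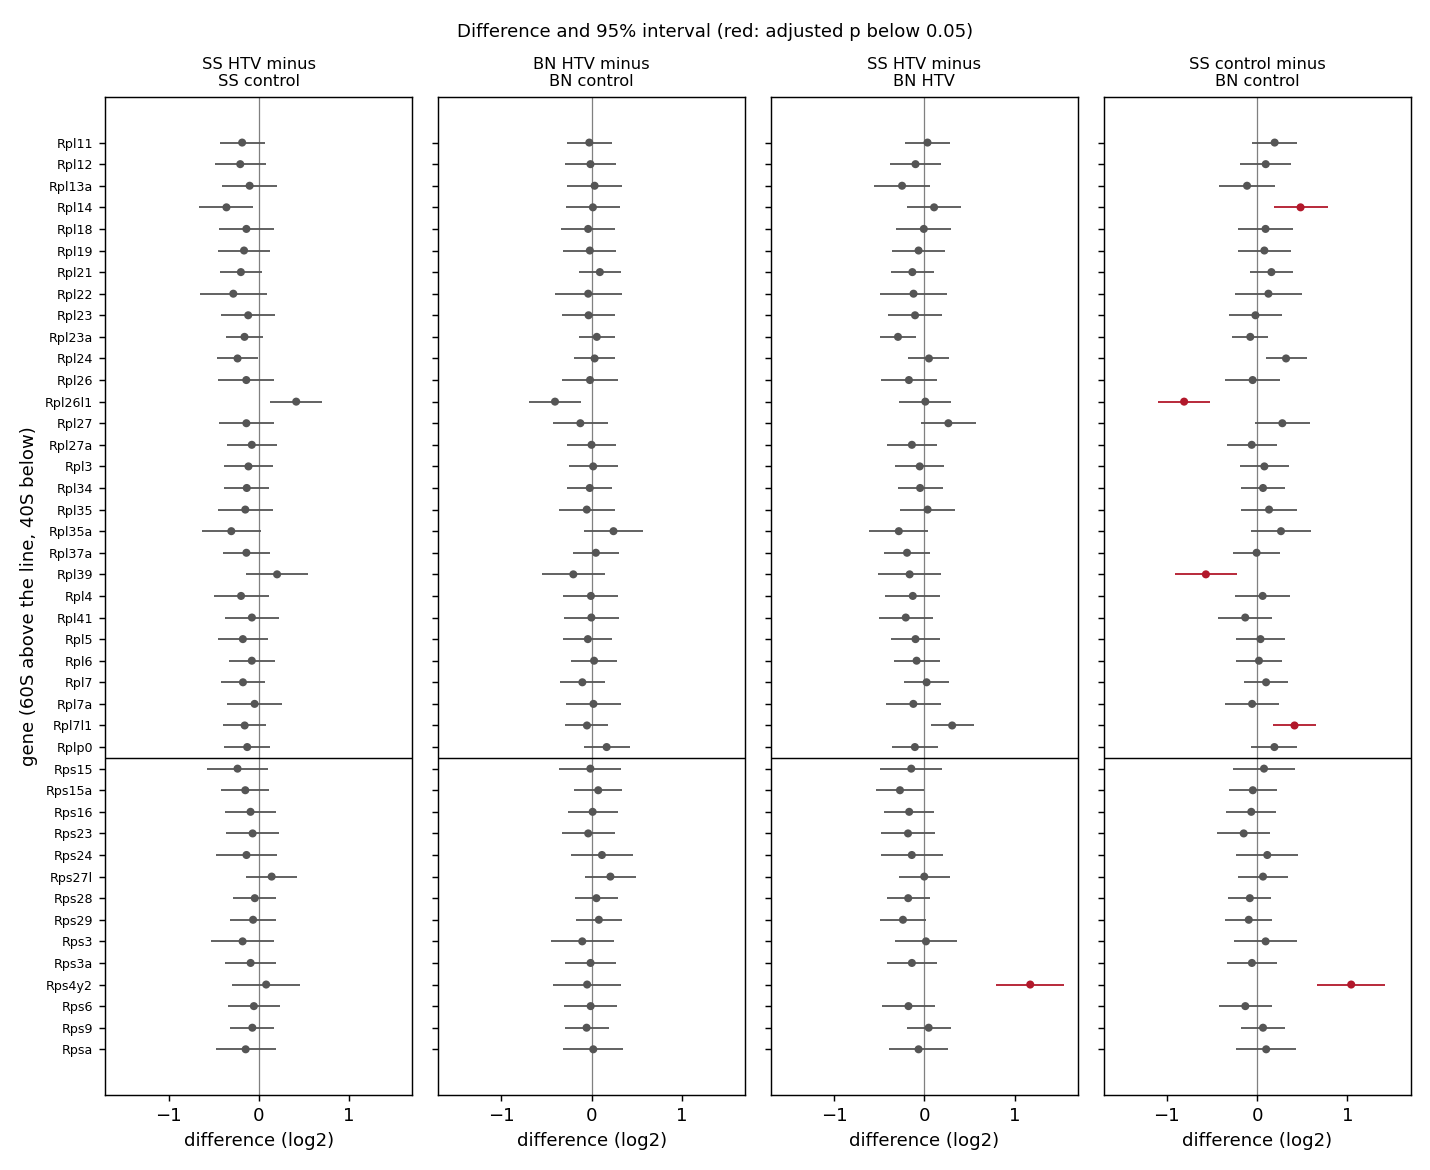
Points are differences of group means (log2) for the 43 tested ribosomal protein genes with 95% intervals, in 4 panels, and red marks an adjusted p below 0.05. No gene is red in the 2 panels for HTV against control, 1 (Rps4y2) is in SS HTV against BN HTV and 5 are in SS control against BN control.

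Whether HTV acted differently in the strains was tested as the SS difference minus the BN difference. No ribosomal protein gene passed, and neither did any other tested probe set (0%, with 8.33% at an unadjusted p below 0.05 and 2 of 43 ribosomal protein genes). The median was -0.11, with 40 of 43 genes negative, against 0.027 over all tested probe sets. Without SS control 3 it was 0.015, with 25 genes positive and 18 negative, and with array weights, which give SS control 3 a weight of 0.287, the lowest of the 12, it was 0.011. Rpl26l1 had a difference between strains of 0.82 ± 0.19 (unadjusted p = 0.000746, adjusted p = 0.528). Its groups were separate in both strains and in opposite directions, which held for 1 of 43 ribosomal protein genes and 0.693% of all tested probe sets. Rpl35a had a difference of -0.55 ± 0.22 (adjusted p = 0.574; -0.33 ± 0.14 without SS control 3, adjusted p = 0.686). Rpl39 (0.40 ± 0.23, adjusted p = 0.649), Rpl14 (-0.37 ± 0.20, adjusted p = 0.639) and Rpl21 (-0.29 ± 0.15, adjusted p = 0.642) followed. Rps4y2 differed by 0.13 ± 0.25 (adjusted p = 0.894), and by -0.11 ± 0.17 without SS control 3.

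Between the strains, in control lungs, 3 ribosomal protein genes were higher and 2 lower in SS than in BN, 5 of 43 where 12.2% of all tested probe sets were called (5.84% higher and 6.41% lower). The higher ones were Rps4y2, Rpl7l1 and Rpl14, the lower ones Rpl26l1 and Rpl39. Only Rpl14 belongs to the 38 bright genes, the largest part of the family. The median of the 43 was 0.066 with all arrays, with 26 genes higher in SS, against -0.024 over all tested probe sets. It was -0.11 without SS control 3 and -0.064 with array weights (10 genes higher in each), and 0.141 without SS control 2 (36 higher) and 0.167 with the beta-actin ratio as a covariate (39 higher). Quantile normalization brought the count of calls to 6 with Rpl24 added, and the beta-actin covariate to 6 with Rpl21, Rpl24 and Rpl35a added and Rpl39 and Rpl7l1 lost. Without SS control 3 the same 5 genes were called and no other, and without SS control 2, BN control 2 or BN control 3 the count was 2, Rps4y2 and Rpl26l1. With SS control 3 left out, the beta-actin ratio was -0.51 and -0.23 in SS control and -1.47 to -0.88 in BN control arrays. Strain and that ratio then cannot be told apart in control lungs. Because Rps4y2 passed the brightness limit only through SS arrays, and the SS control arrays of Rpl26l1 lay below it, the count is not support for a strain difference in the family.

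Rps4y2 separated the strains most widely. Its symbol is that of a Y-linked human paralog of Rps4, and RefSeq places the rat gene on chromosome 4. It read 108.4, 109.7 and 59.3 in SS control arrays and 36.4, 33.2 and 36.2 in BN control arrays, where SS control 3, at 59.3, lay between its group and the BN arrays. The difference was 1.04 ± 0.17 (adjusted p = 0.00267), and 1.29 ± 0.13 (adjusted p = 5.69e-05) without SS control 3. In HTV lungs it read 89.5, 98.3 and 99.2 in SS and 32.5, 34.5 and 33.5 in BN arrays, a difference of 1.17 ± 0.17 (adjusted p = 0.00126). Rps4y2 was tested only because its SS arrays are bright, BN values lying below the brightness limit, so these values describe the gene and support nothing beyond it. The added 16 understates the fold of so dim a probe set.

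Rpl26l1 passed the test between the strains in control lungs and did not pass it in HTV lungs. SS control arrays read 32.2, 32.1 and 39.0 and BN control arrays 61.7, 82.7 and 73.2, a difference of -0.81 ± 0.13 (adjusted p = 0.00249), and -0.87 ± 0.15 (adjusted p = 0.00292) without SS control 3. In HTV lungs the strains overlapped, with 46.4, 53.0 and 53.9 in SS and 54.9, 47.6 and 49.2 in BN arrays (0.011 ± 0.13, 95% interval -0.28 to 0.30, adjusted p = 0.975). The difference of these differences is the strain-by-HTV value given above, which did not pass.

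The other 3 calls in control lungs were smaller. Rpl39 read 259.2, 156.9 and 245.4 in SS control and 274.3, 355.9 and 358.7 in BN control arrays (-0.57 ± 0.16, adjusted p = 0.0366). Its low array was SS control 2, and without it the difference was -0.36 (adjusted p = 0.123). Rpl14 read 1896, 2058 and 3064 in SS control and 1654, 1574 and 1673 in BN control arrays (0.48 ± 0.14, adjusted p = 0.0388). Without SS control 3, the highest array, the difference was smaller and still called (0.27 ± 0.079, adjusted p = 0.0446). In HTV lungs Rpl14 read 1744, 1775 and 1816 in SS and 1574, 1696 and 1678 in BN arrays, which did not overlap but did not pass (0.11 ± 0.14, adjusted p = 0.702). Rpl7l1, a gene named for its likeness to Rpl7, read 469.8, 558.3 and 507.0 in SS control and 407.2, 348.1 and 383.6 in BN control arrays (0.42 ± 0.11, adjusted p = 0.0282). A second Rpl7l1 probe set of similar brightness disagreed, with 396.9, 415.7 and 420.8 in SS control and 452.3, 454.9 and 428.1 in BN control arrays (-0.11 ± 0.12, adjusted p = 0.559), so the direction for the gene is uncertain. Rpl24, at 0.32 ± 0.11 (adjusted p = 0.0633), did not pass, though its groups did not overlap, which held for 4 of 43 genes upwards (15.5% of all) and 2 downwards (17.7% of all). Rps23, which sits at the decoding centre, had the next smallest p on the lower side (-0.15 ± 0.14, adjusted p = 0.501).

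**Figure D4:**
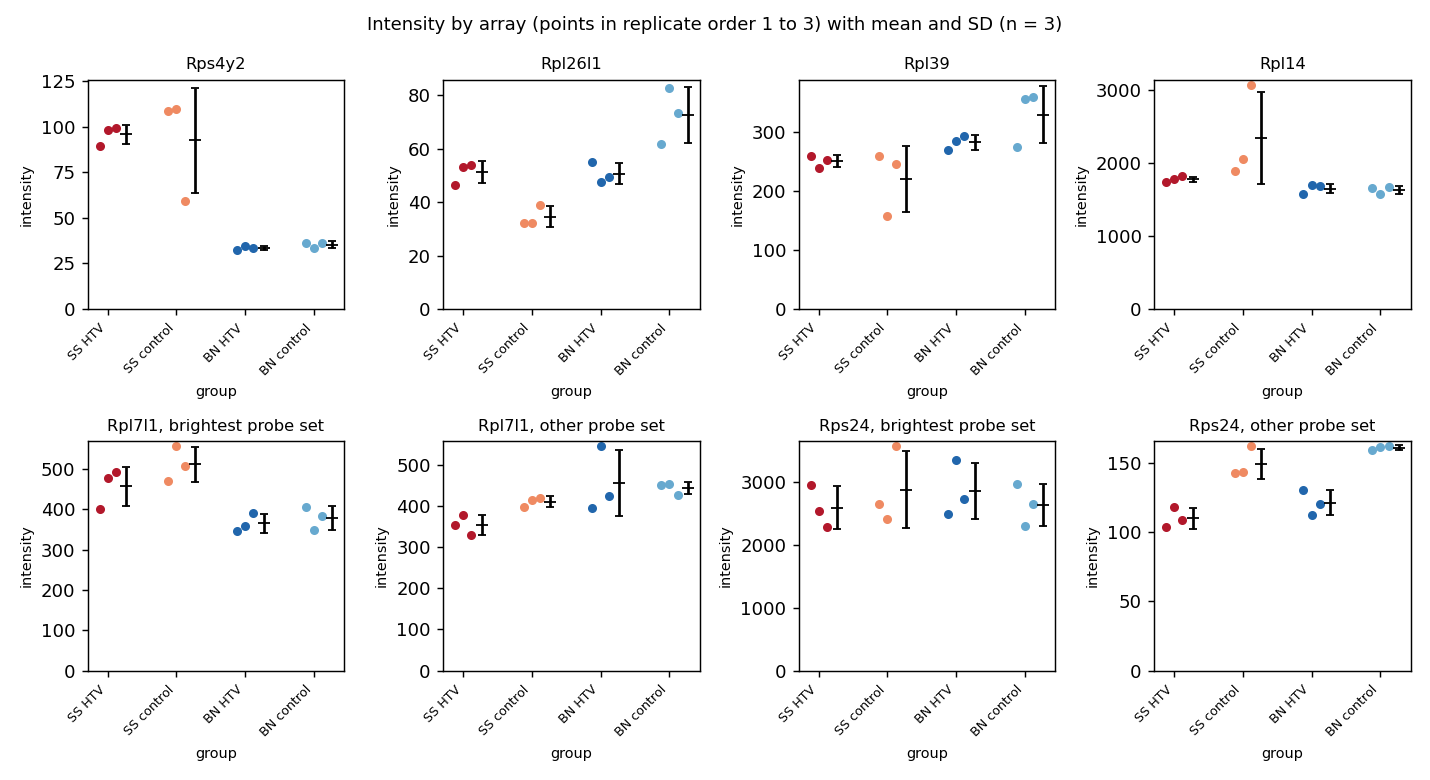
Intensity by array (points, in replicate order) with mean and SD (bars, n = 3) for the 5 genes called between the strains in control lungs, and for the brightest and the other probe set of Rpl7l1 and Rps24. The SS points of Rps4y2 lie above all BN points, the 2 Rpl7l1 probe sets order the strains oppositely, and the other Rps24 probe set is lower in HTV than in control arrays of both strains.

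In HTV lungs, 1 of 43 ribosomal protein genes was called between the strains, Rps4y2, where 8.24% of all tested probe sets were (3.82% higher and 4.42% lower). The median of the 43 was -0.11, with 32 genes lower in SS, but it changed sign to 0.010 after quantile normalization and to 0.079 with the beta-actin ratio as a covariate. That ratio was -1.02 to -0.40 in SS HTV and -1.36 to -1.16 in BN HTV arrays, which did not overlap. Strain and the beta-actin ratio therefore cannot be told apart in these 6 arrays. The same ratio for Gapdh overlapped, at -0.55 to -0.13 in SS HTV and -0.62 to -0.42 in BN HTV arrays, and was not used as a covariate. Rpl23a, a large-subunit protein near the tunnel exit, read 1758, 1627 and 1567 in SS HTV and 1791, 2183 and 2117 in BN HTV arrays, with no overlap (-0.29 ± 0.094, adjusted p = 0.0732). Leaving out SS control 3, which enters only through the shared spread, brought its adjusted p to 0.0462. Rps15a (-0.27 ± 0.12, adjusted p = 0.207), Rps29 (-0.24 ± 0.12, adjusted p = 0.255) and Rpl27 (0.27 ± 0.14, adjusted p = 0.279) did not pass. Rpl7l1 had 401.7, 478.4 and 492.5 in SS HTV and 345.5, 359.2 and 391.8 in BN HTV arrays (0.31 ± 0.11, adjusted p = 0.106), and its second probe set went the other way here too (-0.34 ± 0.12, adjusted p = 0.0911). Groups did not overlap for 3 genes upwards and 3 downwards, against 15.3% and 14% of all.

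Several ribosomal proteins are known for roles outside protein synthesis, and none of these was called in any comparison. Rpl5 and Rpl11 bind Mdm2 and so stabilise p53 when ribosome assembly fails. Rpl5 averaged 2544 ± 238.1 in SS HTV, 2906 ± 570.9 in SS control, 2720 ± 194.7 in BN HTV and 2799 ± 171.0 in BN control lungs (SD, n = 3 each), and Rpl11 2399 ± 184.8, 2751 ± 462.5, 2342 ± 176.4 and 2382 ± 133.3 in the same groups. The SD of both was widest in SS control lungs, where SS control 3 read 3546 for Rpl5 and 3285 for Rpl11. Rps6, the target of S6 kinase, averaged 3002 ± 441.9 in SS HTV, 3132 ± 574.1 in SS control, 3380 ± 345.3 in BN HTV and 3397 ± 180.2 in BN control lungs. HTV differences of Rps6 were -0.056 ± 0.14 in SS and -0.011 ± 0.14 in BN, among the smallest in these 2 comparisons. Rps3, which also binds NF-kB, differed by -0.18 ± 0.16 with HTV in SS and -0.10 ± 0.16 in BN lungs. Rpl13a, known for silencing inflammatory messages in human myeloid cells, differed by -0.10 ± 0.14 in SS and 0.033 ± 0.14 in BN. Rpl22, needed for T-cell development in mice, had the widest spread of the 43 genes, and its SS control arrays read 2315, 2356 and 3909. Its HTV differences were -0.28 ± 0.17 in SS (adjusted p = 0.320) and -0.038 ± 0.17 in BN (adjusted p = 0.936). Rpsa, which is also a laminin receptor, differed by -0.15 ± 0.15 in SS and 0.018 ± 0.15 in BN.

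Extra probe sets of 6 of the 48 genes allow a check within a gene. Both other Rpsa probe sets had the same signs as the brightest in the 2 HTV comparisons, and were not called. The other Rpl14 probe set was dim (mean 3.13) and was not tested. The other Rps24 probe set (mean 135.3) was the one ribosomal protein probe set called for HTV: it read 103.3, 118.0 and 108.5 in SS HTV and 142.3, 143.5 and 161.9 in SS control arrays (-0.39 ± 0.11, adjusted p = 0.0438). In BN lungs it read 130.4, 112.3 and 120.5 with HTV and 159.2, 161.3 and 162.2 in controls (-0.37 ± 0.11, adjusted p = 0.067). No array of either HTV group reached its control group. Groups failed to overlap downwards for 15.8% of all tested probe sets in SS and 15.7% in BN lungs. The brightest Rps24 probe set did not share this, at -0.14 in SS and 0.11 in BN, and the dimmer one is named here after its values were seen. The other Rpl3 probe set read 183.1, 180.1 and 152.8 in SS HTV and 77.6, 77.7 and 126.3 in SS control arrays (0.80 ± 0.25, adjusted p = 0.0663), and differed by -0.52 ± 0.25 in BN lungs (adjusted p = 0.260), while the brightest Rpl3 probe set differed by -0.12 in SS and 0.017 in BN. Rpl30, left out of the tests for dimness, read 22.5, 24.5 and 18.2 in SS HTV and 13.7, 7.10 and 10.5 in SS control arrays, and was called (0.52, adjusted p = 0.0424) where no probe set was left out.

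Genes that act with the ribosomal proteins were counted in lists chosen with earlier results of these data known. Other TOP genes, mostly translation factors, had no member of 16 tested called in any comparison, with medians of -0.12 for HTV in SS (-0.006 without SS control 3) and -0.038 in BN. Rack1, a 40S protein outside the naming rule, differed by -0.13 ± 0.13 in SS and 0.022 ± 0.13 in BN. Of 87 tested genes for ribosome assembly, 0 were higher and 1 lower with HTV in SS, and 4 were higher and 0 lower in BN, with medians of -0.060 and 0.084. Over all tested probe sets 4.16% were lower in SS and 2.96% higher in BN, so these shares are near the background. The BN count was 1 without BN HTV 1, BN HTV 2, BN control 1 or BN control 3 and 2 without BN control 2, and the BN median was 0.005 without BN HTV 2. The BN genes were Sbds, Utp18, Nip7 and Utp3. Sbds, which releases a factor that blocks subunit joining, read 910.3, 763.8 and 1054 in BN HTV arrays, against 556.0, 397.1 and 382.7 in BN control arrays, with no overlap (1.01 ± 0.15, adjusted p = 0.00204), and was called in all 22 alternatives run for it. Utp18 and Utp3, factors of small-subunit assembly, differed by 0.75 ± 0.18 (adjusted p = 0.0238) and 0.35 ± 0.092 (adjusted p = 0.0417), and Nip7 by 0.45 ± 0.11 (adjusted p = 0.0241), with adjusted p of up to 0.101, 0.128 and 0.100 over the alternatives. The SS gene was Fcf1 (-0.59 ± 0.14, adjusted p = 0.0193), not called without SS HTV 1, SS control 2 or SS control 3. Between the strains, 3 assembly genes were higher and 3 lower in SS control lungs, against 5.84% and 6.41% of all tested probe sets. The counts were 1 and 1 without SS control 3 or BN control 3, and none was called without SS control 2 or BN control 2. In SS HTV lungs 0 were higher and 3 lower, against 3.82% and 4.42% of all tested probe sets. Of these assembly genes, 1 was lower without SS HTV 2, SS HTV 3 or BN HTV 2. Sbds was among the 3 (-0.72 ± 0.15, adjusted p = 0.0119). In control lungs Sbds was called the other way, higher in SS than in BN (limma, 0.535 ± 0.154, adjusted p = 0.0386).

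Of 36 tested genes around mTOR and Myc, 2 were higher and 2 lower with HTV in SS, and 2 were higher and 0 lower in BN, where 3.91% and 4.16% of all tested probe sets were called in SS and 2.96% and 2.86% in BN. None was called in SS without SS HTV 1 or SS HTV 3, and none in BN without BN control 1. Myc read 225.8, 164.5 and 339.8 in SS HTV and 106.8, 161.4 and 104.5 in SS control arrays (0.86 ± 0.22, adjusted p = 0.0304). It was called in 15 of 22 alternatives and not without SS control 3 (limma, 0.757 ± 0.242, adjusted p = 0.091). In BN lungs Myc read 253.3, 302.3 and 258.6 with HTV and 114.5, 142.5 and 152.1 in controls (0.92 ± 0.22, adjusted p = 0.0255), called in 17 of 22. Mxd1, which competes with Myc for its partner Max, rose by 1.32 ± 0.29 in SS (adjusted p = 0.0160) and 1.37 ± 0.29 in BN (adjusted p = 0.0146), called in 20 and 21 of 22 alternatives. The 2 genes that fell in SS were Tsc1, part of the complex that restrains mTOR (-0.39 ± 0.10, adjusted p = 0.0318), and Rps6ka3, an S6 kinase of the RSK family (-0.57 ± 0.16, adjusted p = 0.0400), called in 15 and 9 of 22 alternatives and neither of them without SS control 3. Mtor itself differed by 0.029 ± 0.093 in SS and 0.050 ± 0.093 in BN. Between the strains 0 regulators were higher and 6 lower in SS control lungs, where 6.41% of all tested probe sets were lower. Of these, 3 passed without SS control 3, and the count was 2 without SS control 2 or BN control 2. The 6 included Eef2k, the kinase that slows elongation (-1.002 ± 0.145, adjusted p = 0.00101), and Larp1 (-0.92 ± 0.26, adjusted p = 0.0360). Eef2k was called in all 22 alternatives. Larp1 was called in 14 of them and not without SS control 3 (limma, adjusted p = 0.0588). In HTV lungs 0 were higher and 3 lower in SS, against 3.82% and 4.42% of all tested probe sets. Of these regulators, 1 was lower without SS HTV 2, SS HTV 3 or BN HTV 3. Eef2k was among the 3 (-0.55 ± 0.15, adjusted p = 0.0329, and 0.212 with the beta-actin covariate).

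Mitochondrial ribosomal proteins, which are made in the cytosol for a separate ribosome, were tested for 73 genes. With HTV in SS lungs 0 were higher and 8 lower, against 4.16% lower over all tested probe sets, with a median of -0.18. The count was 0 without SS HTV 1, 2 without SS control 3 or in a fit of only the arrays compared, 3 without SS HTV 3 or SS control 2, and 4 without SS HTV 2 or after quantile normalization. In BN lungs none was called either way (limma), with 5 at an unadjusted p below 0.05 and a median of -0.083. Mrpl55 was among the 8, at 200.3 ± 41.6 in SS HTV and 334.2 ± 20.8 in SS control lungs (-0.71 ± 0.15, adjusted p = 0.0113, and 0.059 without SS HTV 1). Between the strains, 12 were higher and 0 lower in SS control lungs, against 5.84% and 6.41% of all tested probe sets. In SS HTV lungs 1 was higher, against 3.82% of all tested probe sets. The 12 were 3 without BN control 2, 5 without SS control 2, 7 without BN control 3 and 8 without SS control 3. The cytosolic family had 0 of 43 called for HTV in either strain, and the difference between these 2 lists was not tested.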

How the data were processed

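Right lungs of 12 rats were hybridised to Affymetrix rat arrays, 3 per group, from 6 µg of total RNA, per the labels' protocols. The deposited values are linear intensities per probe set, made with MAS5 per the submitters' processing notes; neither its version nor its settings are stated there. The mean between percentiles 2 and 98 was 150.0 on each array, so they were treated as already scaled.

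Of 31099 probe sets, 57 were controls. GEO's platform annotation named 1 gene for 20832, several for 436 and none for 9780; 0 symbols changed through RefSeq's GRCr8 table. Intensities entered as log2(intensity + 16), and 18625 probe sets were tested. The 4 group means were fitted over all 12 arrays with limma 3.58.1 in R 4.3.3 (eBayes with intensity trend, 8 residual and 5.4 prior degrees of freedom), so that all groups share 1 estimate of the spread. Differences are on this log2 scale, which understates changes of dim probe sets, with Benjamini-Hochberg adjustment over every tested probe set and a threshold of 0.05. Errors after a difference are limma's moderated standard errors. The HTV comparison of a strain and the strain comparison of a condition share arrays.

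Animals are numbered separately in the labels. The p-values reflect only how these samples vary. Replicate numbers follow the order of deposit. Precision is limited by the number of arrays. The fit was tested on simulated data. The settings varied were the pseudocount (1 and 64), the filter (none, 60th percentile), the scaling (quantile, or centring on the median), the trend in eBayes, weights per array, a fit of only the arrays compared, the beta-actin ratio as a covariate, averaging the probe sets of a gene, each array left out, and, added after the data were seen, the other Rpl7l1 probe set.

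The members and lists (TOP genes, ribosome assembly, mTOR and Myc regulators, mitochondrial ribosomal proteins, cell markers) were chosen with earlier results of these data known. Named genes were those past the test, the 3 smallest p each way where fewer than 6 passed, the brightest, dimmest and most variable members, paralogs, members with well-known roles, and up to 4 called genes of a list. Start sequences are RefSeq's.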

Additional observations from a re-analysis of the deposited data

Results flagged for a closer look

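Rpl26l1 was the one of 43 ribosomal protein genes whose HTV and control arrays were separate in both strains and in opposite directions, which held for 129 of 18625 tested probe sets (0.693%). All 3 SS HTV arrays (46.4, 53.0 and 53.9) were above all 3 SS control arrays (32.2, 32.1 and 39.0), and all 3 BN HTV arrays (54.9, 47.6 and 49.2) were below all 3 BN control arrays (61.7, 82.7 and 73.2). The difference between the strains was itself tested: it was 0.819 ± 0.189 on the log2 scale, with an unadjusted p of 0.000746 and an adjusted p of 0.528 (limma), so it did not pass the correction over all tested probe sets. Over the alternatives it ranged from 0.477 to 1.063, without passing in any. The probe set is dim in SS control lungs, and its distance from background is unknown here.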

How the results depend on the processing

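Without SS control 3, or any other array in turn, the median difference of the 43 genes ranged from -0.222 to 0.029 for HTV in SS, and from -0.108 to 0.141 between the strains in control lungs, and the number of genes called ranged from 0 to 1, and from 2 to 5. Between the strains in HTV lungs it ranged from 1 to 2, and the beta-actin covariate moved the median to 0.079. For HTV in SS, 1 gene was called with no filter (Rpl30), quantile normalization (Rpl14), eBayes without a trend and array weights (Rpl26l1 in both). In HTV lungs 0 were called between the strains with a 60th percentile filter, which drops Rps4y2, and 2 after quantile normalization (Rpl27 added). In control lungs the count was 3 without a filter on brightness, 3 under the 60th percentile limit and 2 in a fit of only the arrays compared, and 6 after quantile normalization or with the beta-actin covariate. Signs turned for Rpl39 with HTV in SS without SS control 2 (-0.01, up to 0.325 without SS control 1), for Rpl7 with HTV in BN as a mean over probe sets (0.166), for Rpl7l1 between strains in HTV lungs as a mean (-0.015) and for its other probe set (-0.339, and -0.11 in control lungs), and for Rps4y2 by strain with array weights (-0.037) and without SS control 3 (-0.114, up to 0.255 without SS control 2). The cause was not tested, except that fewer probe sets or arrays enter some fits. Rps4y2 and Rpl26l1 were called between strains in control lungs in 23 of 24 settings, Rpl39 and Rpl7l1 in 18 and Rpl14 in 14. No paired analysis was possible because the groups share no animal numbers. Dim probe sets have unknown distance from background.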

Other observations

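Markers of other cell types differed between groups beside the ribosomal protein values. Over all tested probe sets, 3.91% were called higher and 4.16% lower with HTV in SS lungs, and 2.96% and 2.86% in BN lungs. Between the strains, 5.84% were called higher and 6.41% lower in SS control lungs, and 3.82% and 4.42% in SS HTV lungs. The 5 tested B cell and plasma cell markers (6 measured, Cd79b below the brightness limit) had 0 called higher and 1 lower with HTV in SS lungs and none called in BN lungs, where 2 had an unadjusted p below 0.05 (limma). Of 5 tested red cell and platelet markers (8 measured; Ahsp, Ppbp and Gp9 below the limit), 1 was higher with HTV in SS lungs, Pf4 (1.25 ± 0.26 on the log2 scale, adjusted p = 0.0110). Of 11 tested cardiac muscle markers (13 measured; Myh7 and Myl3 below the limit), 0 were higher and 10 lower in SS control than in BN control lungs. Their summed intensity was 136.5 to 678.9 in SS control and 1552 to 3454 in BN control arrays. Whether this reflects tissue content or RNA per cell was not tested, and neither was its part in the strain comparisons above. Of 17 tested T and NK cell markers, 0 were higher and 5 lower with HTV in SS, and 0 and 1 in BN lungs. In summed intensity of the 19 measured, SS control 3 was the lowest SS control array (2931, against 4684 and 5070). Between the strains, 5 of these markers were higher and 0 lower in SS control than in BN control lungs, and 2 were higher and 0 lower in SS HTV than in BN HTV lungs; their part in the strain comparisons was not tested.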
